A study of Mus musculus with 23 samples.

Results

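The variable segments of immunoglobulins were measured in the aorta of ApoE-deficient mice exposed to chronic intermittent hypoxia (CIH) or normoxia. The segments were taken as every gene whose symbol starts with Ighv, Igkv or Iglv, and 199 of the 30176 genes on the array met this rule. There were 113 heavy segments (Ighv, chromosome 12), 86 kappa segments (Igkv, chromosome 6) and 0 lambda segments (Iglv). Each of the 199 symbols had 1 probe set. Ighv1-62-2 and Ighv1-71 had identical values on every array. They are not independent measurements, but each was counted as a segment. The RefSeq annotation lists 189 of them as V segments and 10 as V segment pseudogenes. A further 24 probe sets are annotated to several symbols of which at least 1 is a variable segment, and they were kept apart. Of these, 1 carries the lambda segments Iglv1, Iglv2 and Iglv3 together with lambda constant regions.

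All mice were male, of the C57BL/6J strain and ApoE-/-, 8 weeks old at the start, and all were given high-fat feed. The 5 groups were Nor 8W (normoxia for 8 weeks, n = 5), CIH 8W (CIH for 8 weeks, n = 5), Nor 12W (normoxia for 12 weeks, n = 5), CIH 12W (CIH for 12 weeks, n = 4) and CIH 8W + Nor 4W (CIH for 8 weeks and then normoxia for 4 weeks, n = 4). ApoE is missing from every cell of these mice, the controls included, and the model is one of diet-driven atherosclerosis. RNA of the whole aorta was hybridized to 1 Clariom D array per sample, which gave 23 arrays. Values are log2 signals as deposited.

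An antibody is built from paired heavy and light chains, and the part of each chain that binds antigen is encoded by a variable segment. In each developing B cell the Rag enzymes join a single heavy V segment to D and J segments, and a kappa or lambda V segment to a J segment. The cell and its descendants then transcribe those joined segments with a constant region such as Ighm or Ighg2b, and plasma cells, the secreting descendants, do so at very high levels. Different clones of B cells thus use different V segments. In the atherosclerotic aorta of mice, B cells and plasma cells are found mainly in the adventitia and the surrounding fat.

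The tissue label was checked first. The smooth muscle genes Myh11, Acta2, Tagln, Cnn1 and Smtn were above background on all 23 arrays. Brown fat genes were also present, with Ucp1 between 7.48 and 17.14. Markers of lymph node and lymphoid stroma were divided. Of 6 measured, Cxcl13 (9.39 to 17.37) and Ccl19 (7.34 to 10.82) were above background on all 23 arrays and Glycam1 on 3. The other 3, Cr2, Madcam1 and Fcer2a, were above it on none. Cxcl13 was highest on CIH 8W replicate 3. Th, the rate-limiting enzyme of catecholamine synthesis and a marker of sympathetic neurons, lay between 7.61 and 14.84 on 5 arrays (Nor 8W replicate 3, CIH 8W replicates 3 and 5, and Nor 12W replicates 3 and 4) and at most at 5.14 on the others. The counts of called segments were therefore also computed without these 5 arrays. Related V segments are similar in sequence, so a probe set can also take signal from near relatives, and the identity of a single segment is uncertain to that extent. Less signal can stand for fewer cells or for less RNA per cell, which cannot be told apart in whole tissue.

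Most variable segments lay near or below background. The background threshold of an array was the 95th percentile of its 23 background probe sets and ranged from 4.64 to 5.50. By this threshold 34 of 199 segments (17.1%) were above background on at least 12 of the 23 arrays, compared with 43.2% of all genes. There were 12 segments above background on all 23 arrays and 50 that never were. The 12 comprised the heavy segments Ighv1-2, Ighv1-5, Ighv1-14, Ighv1-56, Ighv1-62-1, Ighv2-2, Ighv2-3, Ighv2-4, Ighv2-5, Ighv4-1 and Ighv10-1 and the kappa segment Igkv19-93. Ighv1-2 had signals between 8.60 and 15.32 and a median of 11.02. Of the 10 pseudogenes 7 were never above background, and Ighv1-2, itself annotated as a pseudogene, was the only one above it on every array.

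Heavy segments were detected more often than kappa segments. Of all combinations of a heavy segment and an array 31.3% were above background, against 18.5% for kappa, a difference of 12.8 percentage points. The heavy share was the larger one on 23 of 23 arrays, and the difference ran from 2.69 points on CIH 8W replicate 5 to 23.6 points on CIH 8W replicate 4. On at least 12 arrays 26 of 113 heavy and 8 of 86 kappa segments were above background, and 21 heavy and 29 kappa segments were above it on no array. The count covers probe sets and not molecules, since heavy and kappa probe sets differ in their response and their levels were not compared with each other. The probe set that combines lambda V segments with lambda constant regions lay between 3.88 and 7.57, highest on CIH 8W replicate 3, and was above background on 6 arrays.

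The number of segments above background varied widely within every group. In Nor 8W the 5 arrays had 20, 22, 21, 80 and 71 segments above background, in the order of the replicates. In CIH 8W there were 26, 114, 73, 103 and 47. In Nor 12W there were 44, 30, 59, 18 and 92. Nor 8W thus held 3 arrays near the lowest count of all and 2 among the 6 highest. CIH 12W had 42, 45, 24 and 62 and CIH 8W + Nor 4W had 58, 60, 41 and 26, and neither of these groups had an array beyond 62. The mean was 42.8 ± 30.03 segments (SD over 5 arrays) for Nor 8W and 72.6 ± 37.0 (SD over 5 arrays) for CIH 8W. At 12 weeks it was 48.6 ± 28.7 (SD over 5 arrays) for Nor 12W, 43.3 ± 15.6 (SD over 4 arrays) for CIH 12W and 46.3 ± 16.0 (SD over 4 arrays) for the recovery group. The ranges of all 5 groups overlapped.

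**Figure D1:**
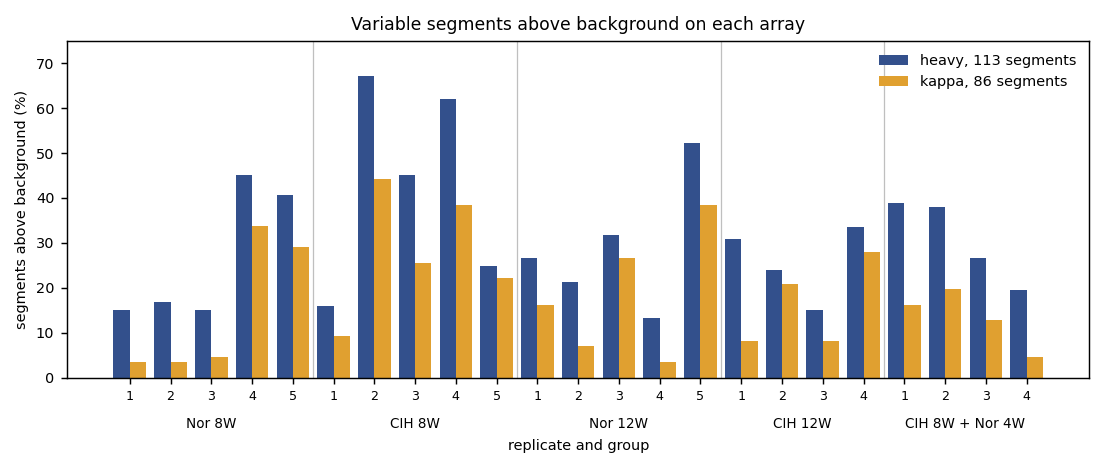
Share of heavy (113) and kappa (86) variable segments above the background threshold on each of the 23 arrays, in percent, by group and replicate. Heavy shares run from 13.3 to 67.3% and exceed the kappa share on every array.

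To describe which segments were high on which array, a segment was called high on an array where its signal was at least 2 log2 units above its own median over the 23 arrays and above the background of that array. By this rule 122 of 199 segments (61.3%) were high on at least 1 array, against 957 of 30176 genes (3.17%). The median SD over the 23 arrays was 0.84 for the variable segments and 0.15 for all genes. Of the 122 segments 38 were high on exactly 1 array, 59 on 2 to 4 and 25 on 5 or more, and no segment was high on more than 8 of 23. Only Igkv4-54, Igkv4-55, Igkv4-59 and Igkv4-62 reached 8 arrays.

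Arrays differed strongly in how many segments were high. CIH 8W replicates 2 and 4 had 66 and 63 high segments, Nor 12W replicate 5 had 54, Nor 8W replicates 5 and 4 had 40 and 31, and CIH 8W replicate 3 had 27. These 6 arrays came from both normoxic and hypoxic groups. Nor 8W replicates 1, 2 and 3 and CIH 12W replicate 1 had 0, and the other 13 arrays had between 1 and 14. Within Nor 12W, replicate 5 with 54 stood against 9, 6, 5 and 1 on the other 4 arrays.

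**Figure D2:**
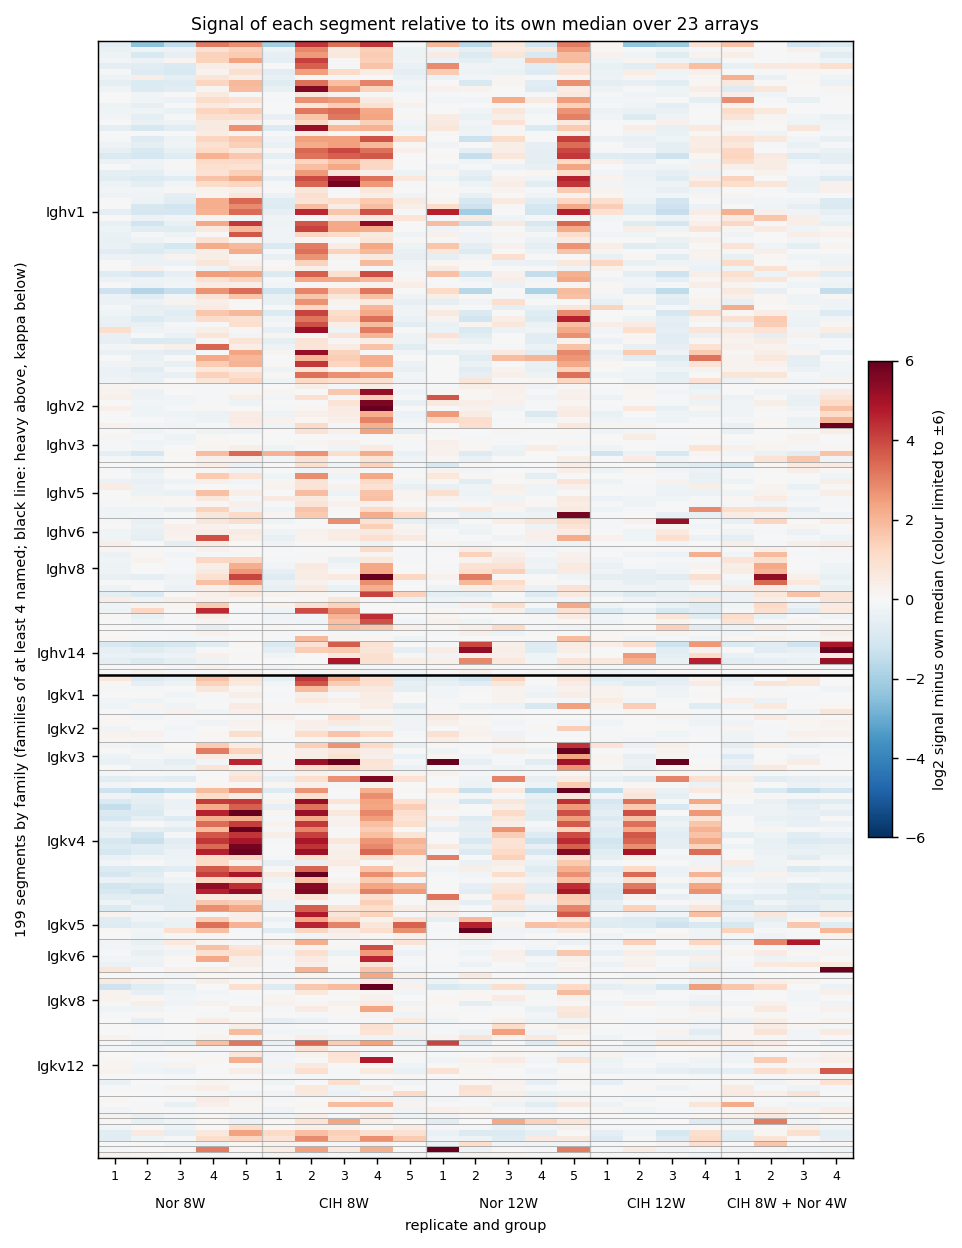
Log2 signal of each of the 199 segments minus its own median over the 23 arrays (colour, limited to ±6), with heavy families above the black line and kappa families below it and arrays in columns by group and replicate. Broad red columns stand on 6 arrays, led by CIH 8W replicate 2 with 66 high segments, and isolated red cells mark segments that were high on few arrays.

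The Igkv4 family is the largest kappa family with 25 members, of which 20 were high at least once, and 5 arrays had at least 13 of them high. Nor 8W replicates 4 and 5 had 14 and 16 high Igkv4 segments, CIH 8W replicates 2 and 4 had 16 and 13, and Nor 12W replicate 5 had 15. Igkv4-59 shows the pattern. It measured 4.38, 4.67, 5.04, 10.08 and 11.27 in Nor 8W, 5.43, 10.57, 5.74, 8.87 and 7.44 in CIH 8W, and 5.35, 4.58, 6.60, 4.41 and 10.93 in Nor 12W. It measured 4.70, 10.41, 5.27 and 8.77 in CIH 12W and 5.40, 5.06, 4.99 and 4.96 in CIH 8W + Nor 4W. High and low arrays stood side by side in the first 4 groups, and no array of CIH 8W + Nor 4W was high. CIH 12W replicates 2 and 4 had 11 and 8 high Igkv4 segments but only 0 and 1 high Ighv1 segments, whereas the 5 arrays above had between 11 and 36 of the latter.

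The Ighv1 family, with 61 members the largest of the heavy locus, held 45 of the 74 heavy segments that were high at least once. Ighv1-53, which was high on 7 arrays, measured 5.22, 4.78, 4.79, 7.88 and 9.16 in Nor 8W, 5.30, 10.29, 7.46, 9.62 and 5.73 in CIH 8W, and 10.44, 3.69, 5.78, 4.66 and 10.42 in Nor 12W. It measured 6.64, 5.06, 4.41 and 6.21 in CIH 12W and 7.93, 6.07, 5.57 and 5.27 in CIH 8W + Nor 4W. The groups overlapped. Ighv1-2 was high on 6 arrays, with 14.14 and 13.75 on Nor 8W replicates 4 and 5, 15.32, 14.31 and 15.31 on CIH 8W replicates 2, 3 and 4, and 14.15 on Nor 12W replicate 5. These are the 6 arrays with the most high segments.

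Segments of 1 family often moved together across arrays. Among the 100 segments above background on at least 4 arrays, the median Pearson r over the 23 arrays was 0.73 for pairs within a heavy family, 0.31 for pairs of different heavy families, 0.93 within a kappa family and 0.42 between kappa families. Pairs of a heavy with a kappa segment had a median r of 0.48. The within-family medians rest mainly on Ighv1, with 903 of 937 heavy pairs, and on Igkv4, with 153 of 159 kappa pairs. Within a family r ranged from 0.10 to 0.98 for heavy and from 0.07 to 0.997 for kappa pairs. Ighv8, Ighv14 and Ighv2 pairs had medians of 0.91, 0.86 and 0.62. These are descriptions, since the pairs share arrays and probe sets of 1 family can measure related sequences. The 2 largest families, Ighv1 and Igkv4, were both high on the 5 arrays named above, while smaller families were high on other arrays as well. All 4 Ighv14 segments were high at least once, with Ighv14-1, Ighv14-2 and Ighv14-4 high together on Nor 12W replicate 2 and on CIH 8W + Nor 4W replicate 4. Of the 8 Ighv8 segments, 5 were high on CIH 8W replicate 4, 4 on Nor 8W replicate 5 and 4 on CIH 8W + Nor 4W replicate 2.

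A different pattern was a few segments with very high signals on a single array. On CIH 8W + Nor 4W replicate 4 only 8 segments were high, but Igkv6-13 reached 13.90 and Ighv2-9 reached 13.84. Igkv6-13 measured between 3.01 and 5.28 on the other 22 arrays and Ighv2-9 between 4.47 and 7.01. On the same array Ighv14-2 was at 10.71, Ighv14-1 at 9.77, Ighv14-4 at 9.22 and Igkv12-46 at 7.03.

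Nor 12W replicate 1 had 9 high segments. Its Igkv19-93 signal was 15.92, where the other 22 arrays had values between 5.26 and 8.68. The same array had Igkv3-2 at 11.49, Ighv2-3 at 10.46, Ighv1-53 at 10.44 and Igkv10-95 at 8.62. Ighv2-3 was high on this array alone, and its other values ran from 6.26 to 8.16.

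Igkv3-2 was high on 6 arrays of 4 groups. It measured 13.46 on CIH 8W replicate 3, 12.57 on CIH 12W replicate 3, 11.49 on Nor 12W replicate 1, 9.31 on CIH 8W replicate 2, 9.21 on Nor 12W replicate 5 and 8.72 on Nor 8W replicate 5. The other 17 arrays had values between 3.51 and 4.98, so that no array lay in between. The accompanying heavy segments differed. On CIH 8W replicate 3 they were led by Ighv1-43 (10.03) and Ighv1-42 (9.24), and on CIH 12W replicate 3 the only high heavy segment was Ighv6-3 (10.50).

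Other arrays had their own leading segments. On CIH 8W replicate 4, Ighv2-5 measured 13.83 against 6.49 to 8.68 elsewhere, with Ighv2-4 at 11.57, Igkv8-30 at 11.65, Ighv8-12 at 9.98 and Igkv4-91 at 9.01. Nor 12W replicate 2 had 6 high segments, led by Igkv5-39 (11.14) and Ighv14-2 (9.31). On Nor 12W replicate 5, Igkv3-4 measured 9.70 and Ighv5-17 measured 9.19. CIH 8W + Nor 4W replicate 2 was led by Ighv8-12 (8.77), replicate 3 had the single high segment Igkv6-32 (7.77) and replicate 1 was led by Ighv1-18 (6.94). Each array of this group thus had a different leading segment.

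**Figure D3:**
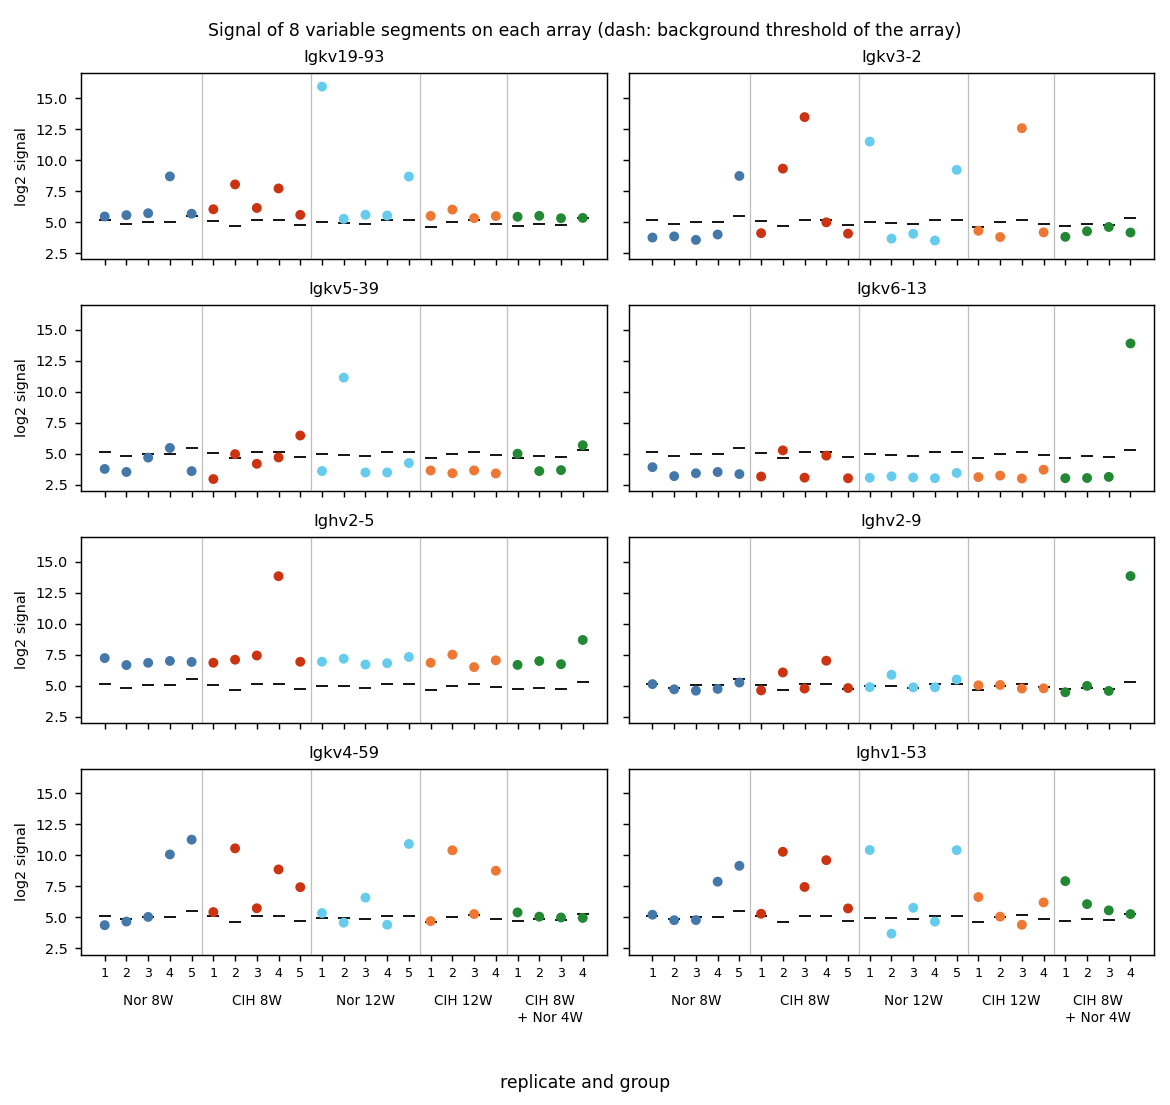
Log2 signal of 8 variable segments on the 23 arrays, by group (colour) and replicate, with the background threshold of each array as a dash. Igkv6-13 and Ighv2-9 exceed 13 on CIH 8W + Nor 4W replicate 4 alone, Igkv19-93 reaches 15.92 on Nor 12W replicate 1, and Igkv4-59 and Ighv1-53 are high on several arrays of several groups.

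The sets of high segments overlapped between some arrays and not between others. CIH 8W replicate 2 and Nor 12W replicate 5, from a hypoxic and a normoxic group, shared 42 segments, 63.6% of the 66 and 77.8% of the 54. Nor 8W replicates 4 and 5 shared 23, which is 74.2% of the 31 and 57.5% of the 40. Among the 15 arrays with at least 5 high segments there were 105 pairs, and 27 of them had no high segment in common.

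Constant region genes were measured on the same arrays. Ighm, the constant region of IgM, was above background on 23 arrays, between 6.84 and 11.26. Ighg2b, that of IgG2b, was above it on 16, and Jchain, the chain that links secreted IgM and IgA, on 12. On Nor 12W replicate 5 and CIH 8W replicate 4 Ighm was highest, at 11.26 and 11.25. On CIH 8W replicate 2, which had the most high variable segments, Ighm was 7.58, below its median of 8.07, while Ighg2b was 10.83, its highest value. Jchain measured 6.47, 6.47 and 6.53 on CIH 8W replicates 2, 3 and 4, 6.55 and 6.84 on Nor 12W replicates 1 and 5, and at most 5.86 elsewhere. Ighg1 and Ighe were above background on no array. Ighd, Ighg2c, Ighg3, Igha, Igkc and the lambda constant regions have no probe set of their own symbol, and Ighg3 was not analysed here. A probe set that combines Ighg2c, Ighd and Igha with other symbols was above background on 18 arrays. It was highest on CIH 8W replicate 2 (6.69). Another, which combines Igkc with kappa V segments, was above background on 5 arrays. The lambda constant regions were measured only in the combined probe set described above.

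**Figure D4:**
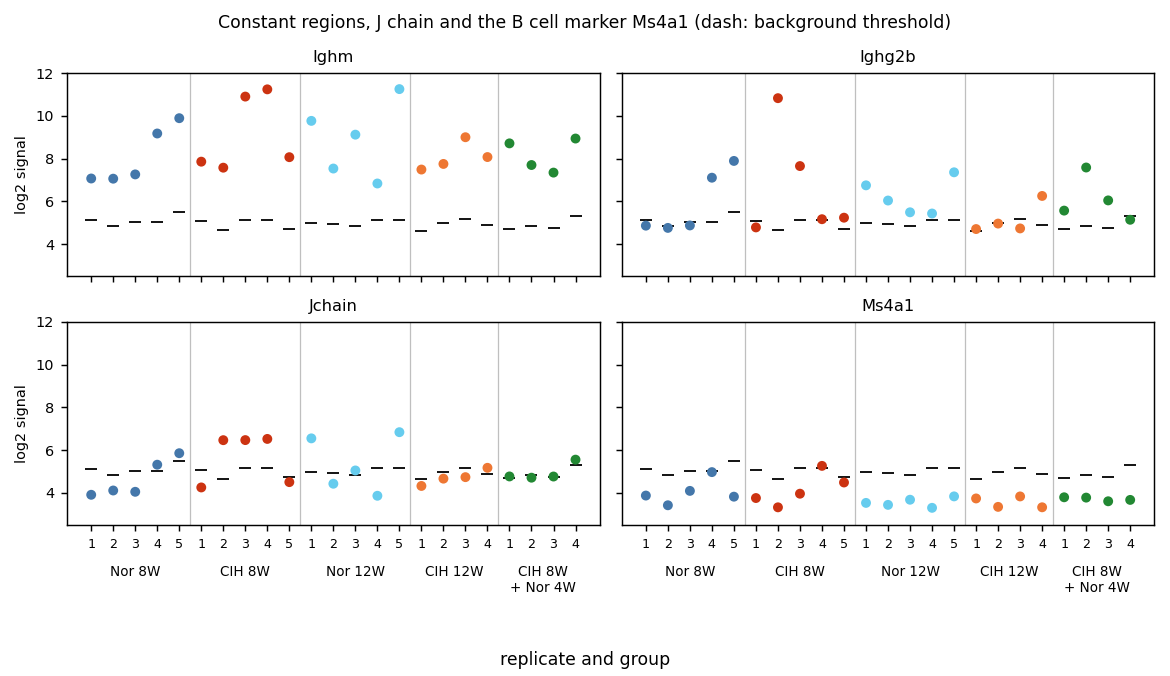
Log2 signal of the constant regions Ighm and Ighg2b, of Jchain and of the B cell marker Ms4a1 on the 23 arrays, by group (colour) and replicate, with the background threshold of each array as a dash. Ighm lies above background throughout, Ighg2b peaks at 10.83 on CIH 8W replicate 2, and Ms4a1 stays at or below 5.27.

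Other genes of B cells and plasma cells were divided. Of 13 measured genes of the B cell receptor, its signalling and B cell identity 7 were above background on no array, among them Cd79a, the signalling partner of the receptor, and Pax5, the transcription factor of B cell identity. Ms4a1, which encodes CD20, was above background only on CIH 8W replicate 4 (5.27), and Cd79b on 3 arrays. In the same list Cd37 (6.58 to 9.87), Blnk (5.23 to 9.53) and Bank1 (5.51 to 7.39) were above background on all 23 arrays and Cd22 on 14. Of 11 plasma cell genes 6 were never above background, including Mzb1, Derl3, Prdm1, the repressor that drives plasma cell formation, and Tnfrsf17, the receptor for survival signals. Sdc1, Xbp1 and Slamf7, which other cells of the aorta also express, were above it on all 23 arrays, Irf4 on 22 and Fkbp11 on 19. Rag2 and Dntt, which act in rearrangement, were above background on no array.

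The comparison of CIH 8W with Nor 8W asks whether the aorta differed after 8 weeks of CIH. More variable segments were called higher than over all probe sets, but none passed after adjustment and no segment separated the groups. Calls rested on limma and required p under 0.05 without adjustment together with a change of more than 1.1-fold. By this rule 17 of 199 segments (8.54%) were higher, 13 heavy and 4 kappa, and over all probe sets 3.99% were called higher. The heavy segment Ighv16-1 was the only one called lower, with 2.47% of all probe sets called in that direction. The lowest adjusted p of any segment was 0.696 and 18 had an unadjusted p under 0.05. The groups overlapped for every segment, where 0.274% of all probe sets lay wholly higher and 0.356% wholly lower. The log2 difference was above 0 for 169 of 199 segments (84.9%), against 48.7% of all probe sets, with a median of 0.53 for heavy and 0.29 for kappa segments and -0.00 over all probe sets.

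Igkv17-121 had the smallest p of this comparison. It measured 3.29, 3.71, 3.88, 4.98 and 5.19 in Nor 8W and 4.74, 6.80, 5.24, 6.69 and 5.47 in CIH 8W. Only the lowest CIH value lay within the range of Nor 8W, and no Nor 8W array was above background. The log2 difference was 1.58 (SE 0.47, adjusted p = 0.696), and CIH 8W was at least 1.61-fold higher than the background of the Nor 8W arrays.

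Other called segments were highest on CIH 8W replicates 2, 3 and 4. Ighv1-31 measured 3.75, 3.33, 3.80, 5.43 and 4.88 in Nor 8W and 4.25, 7.70, 8.26, 7.57 and 4.55 in CIH 8W, a log2 difference of 2.23 (SE 0.83). Ighv1-42 measured 3.33, 3.14, 3.24, 5.67 and 6.19 in Nor 8W and 3.45, 7.86, 9.24, 7.23 and 4.58 in CIH 8W, a difference of 2.16 (SE 1.04). Ighv1-43, its neighbour in the locus, had a difference of 2.06 (SE 0.96). CIH 8W replicates 1 and 5 lay within the range of Nor 8W for these 3 segments. Igkv8-30 measured 3.31, 3.82, 4.09, 4.54 and 5.53 in Nor 8W and 3.75, 6.13, 6.42, 11.65 and 4.77 in CIH 8W, a difference of 2.29 (SE 1.05). Igkv4-91 had a difference of 2.13 (SE 0.90), with 9.01 on CIH 8W replicate 4. Only 2 of 5 CIH 8W arrays were above background for it. The mean of CIH 8W (5.35, SD 2.35) was at least 1.18-fold higher than the background of the Nor 8W arrays. Ighv14-4 was not called (difference 1.70, adjusted p = 0.778 in limma) and was high in CIH 8W only on replicate 3 (8.98). Igkv1-115 and Ighv1-19-1 were called higher and Ighv16-1 lower, but these 3 segments were above background on no array of either group.

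Several calls changed when a single array was left out. Leaving out each of the 23 arrays in turn, the call of Ighv1-42 was lost in 18 cases (difference 1.47 to 2.92), that of Ighv1-43 in 7 (1.20 to 2.67), that of Igkv8-30 in 6 (1.01 to 2.99) and that of Igkv4-91 in 4 (1.21 to 2.74), while Ighv1-31 and Igkv17-121 kept theirs in all 23. Single arrays also decided the count of 17. It was 4 without CIH 8W replicate 4, 8 without replicate 3, 39 without replicate 1 and 36 without replicate 5. It was 5 without Nor 8W replicate 1 or replicate 2, 6 without replicate 3 and 27 without replicate 5, and 10 without CIH 8W + Nor 4W replicate 4, which enters through the shared estimate of the spread. With these 2 groups alone in the fit 7 segments were higher. Without the 5 arrays of strong neuronal signal it was again 17. Of 6 macrophage markers 5 were called higher in the same comparison, with a median log2 difference of 1.62 over the list, and the mean level of the list ranged from 7.97 to 11.5 in Nor 8W and from 9.84 to 13.0 in CIH 8W. Of 4 endothelial markers Vwf (0.92, groups not overlapping) and Cdh5 (0.62) were called higher, and of 5 smooth muscle markers Myh11 was lower (-0.40). Of 4 measured B cell markers 0 were called, of 5 plasma cell markers Sdc1 (0.39) and of 7 T cell markers Cd3d (0.27). Cd79a, Pax5, Mzb1, Tnfrsf17, Derl3, Cd3d and Cd5 were above background on no array. In the longer list of 13 B cell genes described above, Blnk (1.19) and Cd37 (0.89) were called higher. In that of 11 plasma cell genes, Slamf7 (1.86) and Prdm1 (0.46) were also called higher, though Prdm1 was above background on no array. Their part in the result was not tested. Ighm, Ighg2b and Jchain had differences of 1.04, 0.83 and 0.99, none of them called.

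The comparison of CIH 12W with Nor 12W asks the same after 12 weeks. No variable segment was called higher, where 4.29% of all probe sets were, and 8 (4.02%), 2 heavy and 6 kappa, were called lower, where 6.99% of all probe sets were. Of the 8 with an unadjusted p under 0.05 none passed after adjustment (lowest adjusted p 0.086), as against 0.194% of all probe sets that passed higher and 0.696% lower. Of these 8 segments 4 were above background on no array of either group. The remaining 4 were Igkv4-53, Igkv4-60, Igkv5-43 and Ighv10-1. Groups did not overlap for Igkv5-43 and Igkv12-46, both lower in CIH 12W. Over all probe sets 3.2% lay wholly lower and 1.99% wholly higher. The background threshold lay above every CIH 12W value of both segments. For Igkv12-46 it also lay above every Nor 12W value (at most 4.18, thresholds 4.84 to 5.15), so this segment was not detected in either group.

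Igkv5-43 measured 3.83, 8.46, 4.05, 5.58 and 5.45 in Nor 12W and 3.11, 3.05, 2.57 and 2.89 in CIH 12W. All CIH 12W values were below background and 3 Nor 12W arrays were above it, so its call (adjusted p = 0.318) stands for a signal at least 1.47-fold higher in Nor 12W. Igkv4-53 measured 6.91, 3.72, 4.85, 3.94 and 5.23 in Nor 12W and 2.80, 3.90, 3.16 and 3.45 in CIH 12W, and no CIH 12W array was above background. Its call (adjusted p = 0.123) stands for a signal at least 1.01-fold higher in Nor 12W. Igkv4-53 and Igkv4-60 both had their highest value on Nor 12W replicate 1. Ighv10-1, the only called segment above background in both groups, measured 5.98, 6.46, 7.18, 6.07 and 8.41 in Nor 12W and 5.91, 6.01, 5.73 and 5.41 in CIH 12W, a difference of -1.05 (SE 0.45). The groups overlapped. The median log2 difference over the segments was -0.25 for heavy and -0.12 for kappa, against -0.03 over all probe sets, and it was above 0 for 23.6% of the segments and 39.5% of all probe sets. Without the 5 neuronal arrays 13 segments were lower, which leaves 3 Nor 12W arrays, and with only probe sets above background on at least 4 arrays tested 2 were. A call of a higher segment appeared without CIH 12W replicate 1 or without replicate 3, with 2 segments each. No B cell, T cell or macrophage marker was called in this comparison and 1 of 5 plasma cell markers was, Derl3 (0.16), which was above background on no array. Of 4 brown fat markers 3 were lower (median -2.47). The smooth muscle marker Cnn1 (0.52) and the plasma cell gene Xbp1 (0.55) were higher, both with groups that did not overlap, and the endothelial marker Kdr was lower (-0.63). Their part in the result was not tested.

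The comparison of CIH 12W with CIH 8W + Nor 4W asks what 4 weeks of normoxia after CIH changed, and it shares the CIH 12W arrays with the previous one. No segment was called higher, where 2.43% of all probe sets were, and 4 (2.01%) were called lower in CIH 12W, where 3.9% of all probe sets were, with a lowest adjusted p of 0.516. Over all probe sets 0.0091% passed after adjustment in each direction. These were Igkv12-46, Igkv14-100, Igkv6-14 and Ighv1-54, and none of them had an array above background in CIH 12W. Igkv12-46 measured 2.76, 4.40, 3.95 and 7.03 in CIH 8W + Nor 4W, where only replicate 4 was above background, and no fold can be given. In CIH 12W it measured 2.99, 3.01, 2.83 and 2.67, so replicate 1 of the recovery group lay among the CIH 12W arrays. For Ighv9-3, Ighv1-19 and Ighv1-19-1 the groups did not overlap, with lower values in CIH 12W, and none of these 3 was called. Over all probe sets 2.75% lay wholly lower and 2.35% wholly higher. Ighv9-3, Ighv1-19 and Ighv1-19-1 had no CIH 12W array above background. In the recovery group Ighv9-3 was above it only on replicate 3 (4.96), Ighv1-19 only on replicate 1 and Ighv1-19-1 on none. The size of these separations was therefore not measured. The difference was above 0 for 33.7% of the segments and 40.9% of all probe sets. Without CIH 8W + Nor 4W replicate 1 there were 9 lower segments, and with these 2 groups alone 13. A single higher segment appeared when replicate 1 or replicate 3 of CIH 12W, or replicate 4 of the recovery group, was left out. Of the 25 Igkv4 segments 11 were high on CIH 12W replicate 2, 8 on replicate 4 and 0 on each array of CIH 8W + Nor 4W, and no Igkv4 segment was called. Of the marker genes Ucp1 was lower in CIH 12W (-3.80), and the plasma cell gene Xbp1 was higher (0.65) with groups that did not overlap. Their part in the result was not tested.

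CIH 8W + Nor 4W was last compared with Nor 12W, with which it shares the duration, and Nor 12W also served as control above. Of the segments 3 (1.51%) were higher and 4 (2.01%) lower, where 4.14% and 5.23% of all probe sets were. None passed after adjustment (lowest adjusted p 0.077, 7 with an unadjusted p under 0.05), as against 0.0379% of all probe sets that passed higher and 0.262% lower. The difference was above 0 for 31.7% of the segments and 49.4% of all probe sets. Igkv4-53 had the lowest p of all segments. It measured 3.07, 3.05, 2.91 and 2.84 in CIH 8W + Nor 4W, wholly below the 6.91, 3.72, 4.85, 3.94 and 5.23 in Nor 12W. Since only 3 Nor 12W arrays and no recovery array were above background, the signal in Nor 12W was at least 1.02-fold higher. In total 3 segments (Igkv4-53, Ighv15-2 and Ighv5-12-4), all lower in CIH 8W + Nor 4W, and 1 higher, Ighv3-3, had groups that did not overlap. Over all probe sets 2.6% lay wholly lower and 1.84% wholly higher. Ighv15-2 and Ighv5-12-4 were above background on no array of either group. Igkv6-32 was called higher and no fold can be given, since no Nor 12W array was above background. Replicates 2 and 3 of the recovery group were at 5.86 and 7.77, with replicates 1 and 4 at 2.61 and 2.96 among the Nor 12W arrays (2.59 to 2.85) or just above them. Without replicate 3 it was not called. The other 2 higher segments, Igkv6-14 and Ighv6-7, were above background on no array of these groups. There were 5 higher segments when replicate 1 or 2 of Nor 12W was left out, and 7 when replicate 1 of the recovery group was. In the same comparison the brown fat markers Cidea (-1.93) and Cox8b (-1.64) and the neuronal marker Npy (-4.02) were lower, and the smooth muscle marker Smtn was higher (0.78) with groups that did not overlap. Of the B cell genes Vpreb3 was called higher (0.20) but was above background on no array. Their part in the result was not tested.

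**Figure D5:**
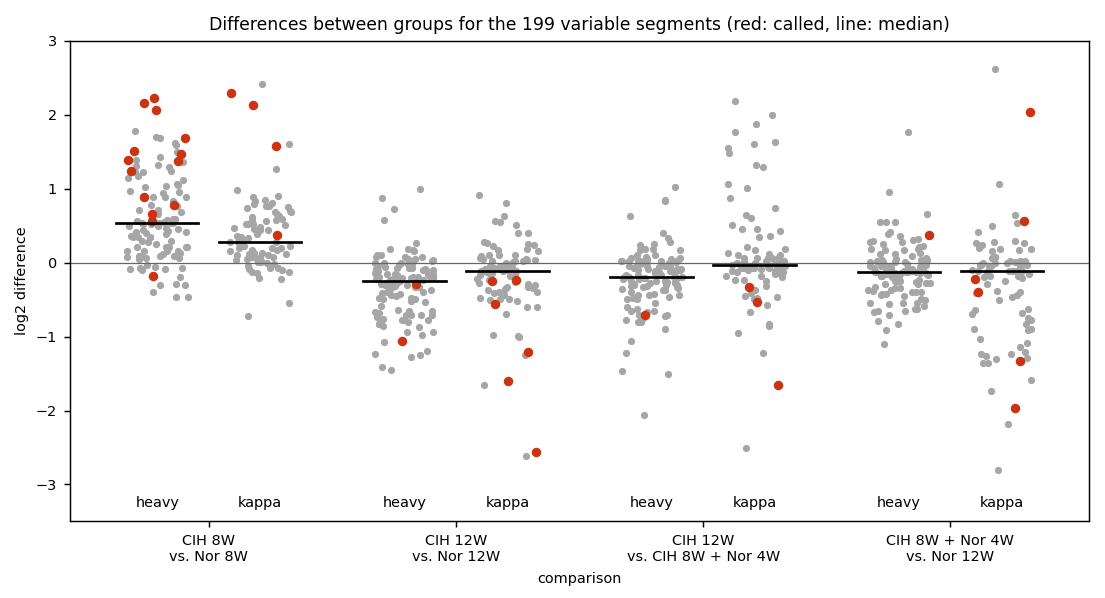
Log2 difference of each of the 199 variable segments in the 4 comparisons (first group minus second), heavy and kappa apart, with called segments in red and the median as a line. The median is 0.53 for heavy and 0.29 for kappa segments in CIH 8W vs. Nor 8W and below 0 in the other comparisons.

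The effect of CIH at 12 weeks was tested directly against that at 8 weeks. The difference of the effects was called for 22 segments (11.1%), 12 heavy and 10 kappa, all of them lower at 12 weeks. Of all probe sets 10.4% were called, but both directions are counted together, so the share called lower is not given by it. None of the segments passed after adjustment (lowest adjusted p 0.203). The smallest p belonged to Igkv4-53, Igkv5-43 and Ighv1-19-1, and each of these was above background on no array of at least 1 of the 4 groups compared, so that the size of the difference was not measured. Leaving out replicate 1 of Nor 8W or of CIH 12W gave 12 calls, leaving out replicate 3 of CIH 8W gave 13, leaving out replicate 2 or 4 of CIH 8W or replicate 5 of Nor 12W gave 10, and leaving out replicate 2 or 3 of Nor 8W gave 9. The median difference was -0.86 for heavy and -0.41 for kappa segments, against -0.03 over all probe sets.

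Over all 5 groups 9 segments (4.52%) passed the moderated F-test at an unadjusted p under 0.05, against 13.4% of all probe sets, and none passed after adjustment (lowest adjusted p 0.096, for Igkv17-121), against 1.27% of all probe sets. Leaving out replicate 1 of CIH 8W gave 23, replicate 5 of CIH 8W gave 19 and replicate 5 of Nor 12W gave 21, while leaving out replicate 1 or 4 of CIH 12W or replicate 3 of the recovery group gave 5.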

How the data were processed

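RNA of 23 aortas was hybridized to Clariom D mouse arrays. The authors normalized the intensities with the Transcriptome Analysis Console, and the submitters' notes name Affymetrix Expression Console. The deposited values are log2 signals per probe set, and their summary method, exact scale and genome build are not given in the sources used here, so log2 differences hold on the deposited scale only. They were used as deposited. Each array was taken as 1 animal, since no pooling is stated, and the number of arrays per group limits the precision. No batch or date is given in the sources used here.

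Of 72688 probe sets 6732 controls were left out and 65956 were analysed. GEO's platform annotation gives 1 symbol for 30638 of them, several for 2176 and none for 33142. Where a symbol had several probe sets, the one with the highest mean was taken. All 199 variable segments matched RefSeq by symbol, and RefSeq (GRCm38.p6) served only for names, segment type, chromosome and order. Background was the 95th percentile of the 23 background probe sets of each array.

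A mean per group was fitted with limma 3.58.1 (R 4.3.3, empirical Bayes), with adjusted p-values (Benjamini-Hochberg) over all 65956 probe sets. The call rule (p under 0.05, not adjusted, and more than 1.1-fold) followed the study's methods. Where a called segment was above background on no array of the dimmer group, a lower bound of the fold was taken from the mean of the brighter group and, per array of the dimmer group, the higher of its signal and the background threshold, and no fold is given where that bound is below 1. The script was tested on simulated data. Other settings were a fit of only the 2 groups compared, quantile normalization, centring on the array median, a filter on dim probe sets, a robust fit with a trend, the replicate number as a block, other thresholds for background and for high segments, and each array left out in turn. Counting the probe sets of several symbols and leaving out the 5 arrays of strong neuronal signal were added after the values were seen.

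Named segments are those of the study's list of most changed mRNAs, the 5 per locus above background on most arrays and the 5 with the largest SD, the 3 smallest p per comparison and direction, and the leading segment of each array. Ighv1-14, Ighv1-19, Ighv1-54, Ighv1-62-1, Ighv10-1, Ighv14-1, Ighv14-2, Ighv15-2, Ighv2-2, Ighv2-4, Ighv3-3, Ighv4-1, Ighv5-12-4, Ighv5-17, Ighv6-3, Ighv9-3, Igkv10-95 and Igkv4-62 were named after their values were seen. The members, lists and markers were chosen with earlier results of these data known.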

Additional observations from a re-analysis of the deposited data

Results flagged for a closer look

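Among 265 groups of 4 or 5 arrays, formed for the named segments and the companion measures, 36 had an array that stood far from the others of its group, of which 35 stood high and 1 low. Chance gives about 1 in 20 in groups not chosen for it. Many of these segments, however, were named because they led on a single array or varied most, and segments of a family often move together. The count is therefore a description only. Nor 12W replicate 5 stood high for Ighv1-42 (8.54), Ighv1-43 (8.58), Ighv1-31 (8.27), Ighv1-56 (8.82), Ighv1-77 (6.34), Ighv1-19-1 (4.94), Igkv4-54 (10.45), Igkv4-55 (8.36), Igkv3-4 (9.70) and the number of high segments (54). In the same group, replicate 1 stood high for Igkv12-46 (4.18) and Ighv2-3 (10.46), replicate 2 for Ighv8-12 (6.56) and Igkv5-39 (11.14), and replicate 3 for Igkv4-91 (6.37). CIH 8W + Nor 4W replicate 4 stood high for Igkv6-13 (13.90), Ighv2-9 (13.84), Ighv14-4 (9.22), Ighv2-5 (8.68) and Jchain (5.56), replicate 1 for Ighv1-18 (6.94) and Ighv1-19-1 (3.78) and low for Igkv6-14 (3.85), and replicate 2 for Ighv8-12 (8.77) and Igkv4-57 (5.07). CIH 12W replicate 4 stood high for Ighv1-43 (5.19), Ighv8-12 (4.44), Ighv1-82 (6.80) and Ighg2b (6.26), replicate 3 for Igkv3-2 (12.57) and replicate 2 for Igkv9-123 (3.88). CIH 8W replicate 4 stood high for Ighv2-5 (13.83) and Ighv8-12 (9.98) and replicate 3 for Ighv14-4 (8.98). In Nor 8W, replicate 4 stood high for Igkv19-93 (8.68) and replicate 5 for Igkv3-2 (8.72). Several of the values in this list lay below the background of their own array. They were Igkv12-46 (4.18), Ighv1-19-1 (4.94 and 3.78), Igkv6-14 (3.85), Igkv9-123 (3.88) and, in CIH 12W, Ighv8-12 (4.44).

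The effects of CIH at 12 and 8 weeks differed at an unadjusted p under 0.05 (limma), with the effect at 12 weeks lower, for 9 named segments, and none passed after adjustment. Each of these 9 segments had a group with no array above background, so the fitted values are not measured sizes. The differences were -1.65 for Igkv17-121, -2.94 for Ighv1-31, -0.43 for Igkv9-123, -2.19 for Igkv4-53, -0.27 for Igkv2-95-2, -1.43 for Igkv4-60, -4.16 for Igkv5-43, -1.14 for Ighv1-19-1 and -2.09 for Ighv1-18.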

How the results depend on the processing

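With each array left out in turn, the number of segments called higher in CIH 8W vs. Nor 8W ranged from 4 to 39 and of those lower from 0 to 2. CIH 12W against Nor 12W gave 0 to 2 higher and 6 to 11 lower, CIH 12W against the recovery group (CIH 8W + Nor 4W) 0 to 1 and 3 to 9, and the recovery group against Nor 12W 2 to 7 and 3 to 6. The difference of the effects was called for 9 to 33 segments and the F-test for 5 to 23. With the 2 groups compared alone, 7 segments were higher and 0 lower in CIH 8W against Nor 8W, 1 was higher in CIH 12W against Nor 12W, and 1 was higher and 13 lower in CIH 12W against the recovery group. Median centring and quantile normalization each gave 1 higher segment in CIH 12W against Nor 12W and 6 in the recovery group against Nor 12W, and median centring gave 13 calls for the difference of the effects. With probe sets above background on fewer than 4 arrays removed, 23452 probe sets and 100 segments remained. This gave 0 lower in CIH 8W against Nor 8W, 2 lower in CIH 12W against Nor 12W, 0 lower in CIH 12W against the recovery group, 0 higher and 0 lower in the recovery group against Nor 12W, 11 calls for the difference of the effects and 3 for the F-test, where fewer segments were tested. Without the 5 arrays of strong neuronal signal there were 2 lower in CIH 8W against Nor 8W and 13 lower in CIH 12W against Nor 12W. For the other settings the cause was not tested. The replicate number as a block changed no count by over 1.5 times, with 13 segments higher in CIH 8W against Nor 8W, 15 calls for the difference of the effects and 7 for the F-test. Of 43 pairs of equal number 16 correlated above 0.1 (median 0.02, range -0.32 to 0.63). Pairs of unequal number were not compared with them, so these values cannot decide whether the numbers pair the arrays. For the 24 named differences under other settings, 656 values kept direction and side of the threshold, 69 kept direction only and 0 reversed. With the 99th percentile as background 18 heavy and 6 kappa segments were above it on at least 12 arrays. Taking a mean over the probe sets of a symbol gave no other value, since each segment had 1. Signals below background limit most kappa segments, and fold changes of these are bounds.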
